A study of Rattus norvegicus with 4 samples.

Results

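The comparison set myometrium labelled as estradiol-treated against myometrium labelled as control, both taken at 6 h. Myometrium is the smooth muscle wall of the uterus. Each side was 1 oligonucleotide array carrying RNA pooled from 6 rats, so the comparison used 2 of the 4 arrays in the series, and the other 2 hold the same treatments at 24 h. Its members were all probe sets other than the Affymetrix controls, 8740 of 8799. All rats were 60 days old and had lost their ovaries a week earlier, the controls included. The treated rats received estradiol benzoate, a slowly released ester of estradiol, under the skin at 10 µg/kg, and the controls received vehicle. The sources used here give no strain. With 1 pool per side there is no replicate error, no p-value can be given, and every difference below compares 2 pools of animals.

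Estradiol acts mainly through the estrogen receptors, transcription factors that bind DNA directly or through partners such as AP-1. In the uterus of a rat without ovaries its first actions are known to include immediate-early genes, growth factor genes and fluid uptake, and growth of the tissue follows. Igf1, an insulin-like growth factor, Pgr, the progesterone receptor, S100g, a small calcium-binding protein, and Hsd11b2, an enzyme that inactivates glucocorticoids, are known as estrogen-raised genes of this tissue.

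At 6 h all 4 of these genes were lower in the pool labelled estradiol. Igf1 had a signal of 705 with the estradiol label and 7884 with the control label, an 11.2-fold difference. S100g read 1308 and 13879.7, in that order, which is 10.6-fold lower. Hsd11b2 read 463 and 3855, which is 8.33-fold lower, and Pgr read 462 and 2673, which is 5.79-fold lower in 2 of 3 probe sets. These directions run against the labels. At 24 h the same genes were higher with estradiol: Igf1 read 5192 with estradiol and 666 in the control, S100g 12698 and 4627, Hsd11b2 6135 and 810, and Pgr 2147 and 656. The 6 h array labelled estradiol therefore lay within 2-fold of the 24 h control for 3 of the 4 genes, and S100g was lower still. Whether the 2 labels at 6 h are exchanged was not tested. Directions are given as labelled throughout, and "higher" and "lower" always refer to the array labelled estradiol.

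**Figure D1:**
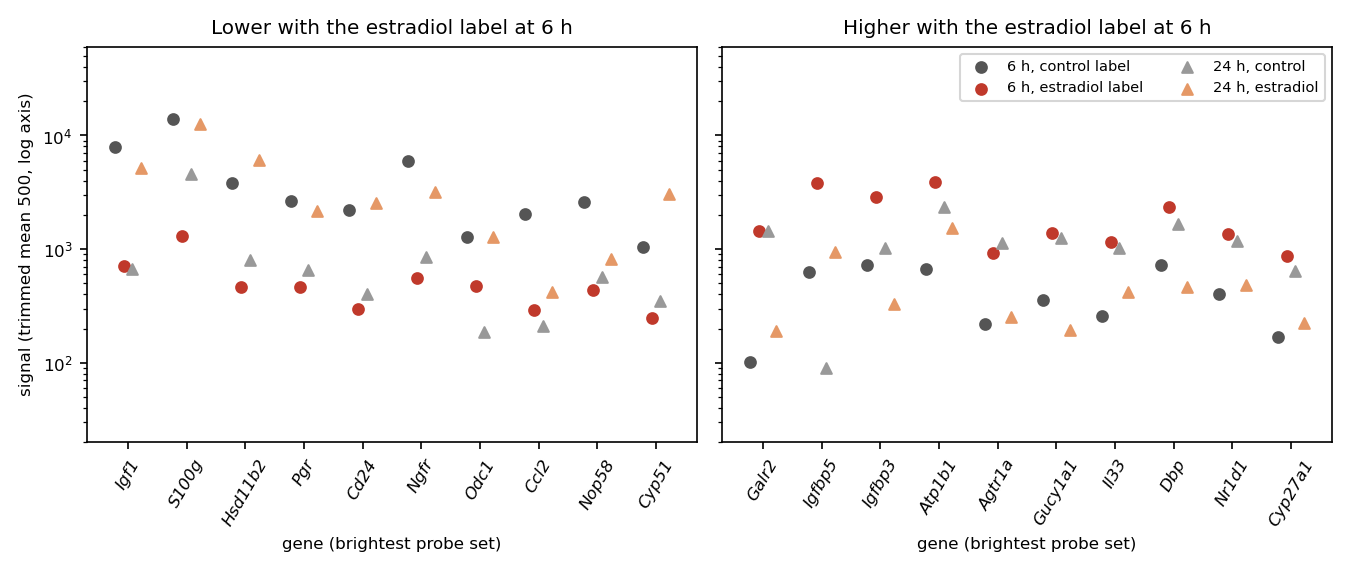
Signal of 20 genes on the 4 arrays, on a log axis, for 10 genes lower (left) and 10 higher (right) on the 6 h array labelled estradiol; each point is 1 pooled array. For Igf1 the 6 h array labelled control (7884) sits near the 24 h estradiol array (5192), and the 6 h array labelled estradiol (705) near the 24 h control (666).

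Signals were the authors' MAS5 intensities, scaled here to a trimmed mean of 500. Values below the 40th percentile of an array, 102 with the estradiol label and 108 with the control label, were raised to that floor. Of the 8740 probe sets, 5745 were above the floor on at least 1 array at 6 h and are called measured. The remaining 2995 were at the floor on both and have no fold. Median signals were 168 with the estradiol label and 169 with the control label. After scaling, the 9 spike-in control probe sets were on average 1.31-fold brighter on the array labelled control, and the bearing of this on small differences was not tested. The ratio of 3′ to 5′ signal, a sign of RNA integrity, was 1.11 and 1.10 for Gapdh and 1.24 and 1.27 for Actb. Both arrays came from the same chip lot and were scanned on the same day. The 24 h arrays were scanned on another day, and the wash record of the 24 h control holds an error, so values set across the times also cross scan days. The number of arrays limits the precision.

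Over the 4273 probe sets above the floor on all 4 arrays, the closest pair was the 6 h array labelled estradiol and the 24 h control, with 361 probe sets 2-fold apart and a correlation of 0.92. The 2 arrays at 6 h had 531 probe sets 2-fold apart and a correlation of 0.90. The farthest pair was the 6 h array labelled control and the 24 h control, with 745 probe sets 2-fold apart and a correlation of 0.87. These correlations run across probe sets of the same array design and describe 4 arrays only.

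A probe set was counted as different when its signals differed at least 2-fold and the brighter one was above its floor. By this rule 427 of the 5745 measured probe sets were higher on the array labelled estradiol (7.43%) and 332 were lower (5.78%). With each gene represented by its brightest probe set, 231 of 3414 measured genes were higher (6.77%) and 187 were lower (5.48%). The log2 differences of measured probe sets had a median of -0.02, an interquartile range of -0.38 to 0.41 and an SD of 0.72. Past 4-fold there were 57 probe sets higher and 47 lower, and past 8-fold 2 higher and 12 lower. The largest difference of all was in a probe set with no gene symbol in the platform table, which read 65.0 below the floor with the estradiol label and 10262 with the control label, at least 101-fold lower. On the 24 h arrays it was bright in both groups, at 12540.1 with estradiol and 9573 in the control, so the array labelled estradiol at 6 h stood alone. In 105 of the higher and 87 of the lower probe sets the dimmer array was at its floor, and such a fold is a lower bound written as "at least". Among the called genes, 148 had more than 1 measured probe set, and in 85 of these a second probe set passed the rule in the same direction. A gene's values below come from its brightest probe set, with the other probe sets counted where they matter.

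**Figure D2:**
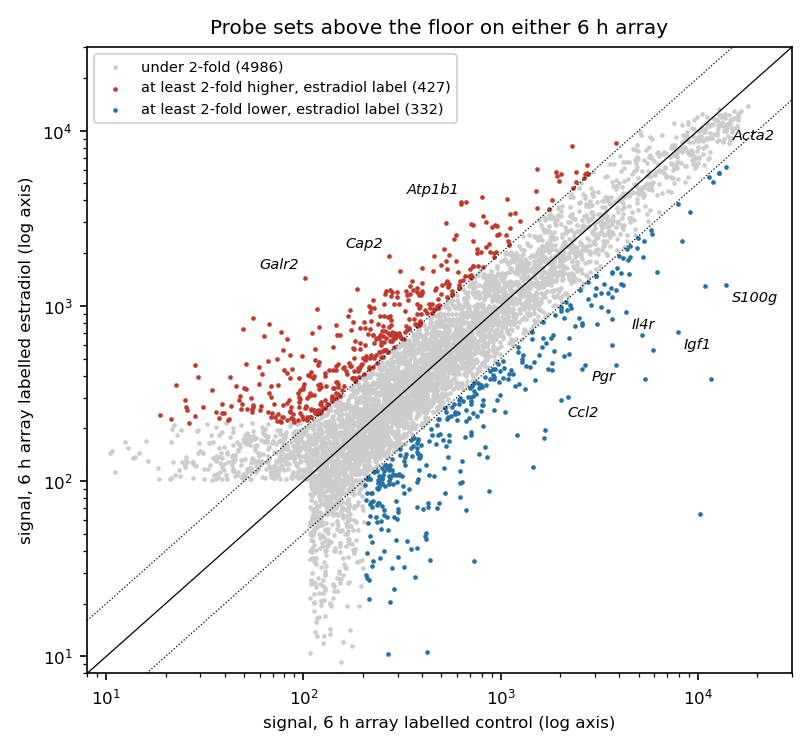
Signal of each measured probe set on the 6 h array labelled control (x axis) and on the array labelled estradiol (y axis), both on log axes; the solid line is equality and the dotted lines are 2-fold. The 427 higher (red) and 332 lower (blue) probe sets lie on both sides of the line, and Igf1 and S100g stand among the bright genes below it.

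Among uterine estrogen targets, 8 of the 25 measured genes were lower and 3 were higher. The median log2 difference was -0.48, beside -0.01 over all measured genes. The 4 genes above are among the 8. They were known beforehand to run against the labels, so the count and median of this list are not independent of them. Counts in this and the later lists are read beside 5.48% of all measured genes lower and 6.77% higher. Besides the 4 genes above, Cd24, a surface sialoglycoprotein, read 300.5 with the estradiol label and 2202 with the control label, 7.33-fold lower, in 3 of 3 probe sets. Ngfr, the low-affinity neurotrophin receptor and no member of that list, read 560.4 and 5923, which is 10.6-fold lower in 1 of 2 probe sets. Odc1, the rate-limiting enzyme of polyamine synthesis, read 476 and 1284, which is 2.70-fold lower. Oxtr, the oxytocin receptor through which the uterus is made to contract, was below the floor at 85.5 with the estradiol label and read 209.5 with the control label, at least 2.06-fold lower. The 3 higher targets, Galr2, Igfbp5 and Igfbp3, are described with their families. Other targets did not pass the rule. Ckb, the brain form of creatine kinase and a classical early estrogen-induced protein of the rat uterus, read 8648 and 8292, a log2 difference of 0.06. Ccnd1, which drives entry into the cell cycle, read 912 and 1468, a log2 difference of -0.69, which leaned lower but was short of the rule. The estrogen receptor gene Esr1, complement C3 and Kap were at the floor on both arrays, so nothing can be read for them. Esr2, the second estrogen receptor, read 318 and 184, a log2 difference of 0.79.

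In the insulin-like growth factor axis members differed in both directions. The ligand Igf1 was lower in 4 of its 5 measured probe sets. Among the binding proteins, Igfbp5 read 3797 with the estradiol label and 627 with the control label, 6.05-fold higher in 3 of 3 probe sets, and Igfbp3 read 2886 and 720, which is 4.01-fold higher in both of its probe sets. Igfbp6, another binding protein, read 7245 and 5705 and Igfbp2 read 251 and 411, both short of the rule. Igf1r, the receptor that Igf1 activates, read 833 and 279, which is 2.98-fold higher in 1 of 2 probe sets. Ghr, the growth hormone receptor, read 522 and 233, which is 2.24-fold higher, also in 1 of 2. Irs1, the docking protein below the receptor, read 102 at the floor and 237, at least 2.33-fold lower. The median over the 19 measured genes of the axis was 0.31, with 4 higher and 2 lower, beside 6.77% and 5.48% over all genes. At 24 h Igfbp3 was lower with estradiol, at 332 against 1025 in the control, while Igfbp5 was higher, at 939 against 89.3 below the floor. Igfbp5 was thus higher with the estradiol label at both times.

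Immediate-early genes are the transcription factors and signal regulators that respond to a stimulus before new protein is made. Of 36 measured genes, 14 were lower and 2 higher, with a median of -0.74, and the others stayed within 2-fold. Cebpb, a CCAAT-binding factor, read 516 with the estradiol label and 2101 with the control label, 4.07-fold lower. Junb, an AP-1 subunit, read 335 and 1335, which is 3.99-fold lower, and Atf3, a stress-induced factor of the same superfamily, read 190 and 705, which is 3.72-fold lower. The other lower members spanned 3.32-fold for Cebpd, in 2 of 3 probe sets, to 2.06-fold for Nr4a1. Myc, a driver of growth and ribosome production, read 246 and 724, which is 2.94-fold lower. Fos, the AP-1 partner of Jun, read 643 and 1446, which is 2.25-fold lower in 3 of 3 probe sets, and Egr1 read 2186 and 4526, which is 2.07-fold lower in 3 of 4. Jun itself read 1308 and 1420 and was not counted. The 2 higher members, Id2 and Klf9, encode an inhibitor of basic helix-loop-helix factors and a Krüppel-like factor. Id2 read 5539.5 and 1921, which is 2.88-fold higher. A short list of RNA integrity and tissue handling genes had 3 of 6 measured members lower, namely Atf3, Fos and Egr1, with a median of -0.87. The members not counted were Jun, Ier3 and Actb, the last an integrity reference. The part of tissue handling in the result was not tested.

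Several feedback regulators of signalling were lower too, of which Dusp1 and Sgk1 were already counted among the lower immediate-early genes. Ppp1r15a, a stress-induced phosphatase subunit that restores translation, read 773 with the estradiol label and 2595 with the control label, 3.36-fold lower. Dusp1, which switches off MAP kinases, read 315 and 746, which is 2.37-fold lower, although only 1 of its 3 measured probe sets passed the rule. Ptpn1, a tyrosine phosphatase of the insulin receptor, read 1558 and 6231 and was lower in 4 of 5 probe sets. Sgk1, a kinase that responds to steroid hormones and salt, read 251 and 799, which is 3.18-fold lower. Among all 80 measured genes of the kinase and phosphatase list, which does not hold Sgk1, 8 were lower and 5 higher. The shares over all genes were 5.48% and 6.77%. The list median was -0.03. Those 5 included Mapk7, at 498 against 73.5 below the floor, at least 4.62-fold higher in 1 of 2 probe sets.

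Ribosome biogenesis genes had the lowest median of the lists, -1.32, with 6 of 10 measured genes lower and 0 higher. Nop58, a core protein of the particles that methylate ribosomal RNA, read 436 with the estradiol label and 2575 with the control label, 5.91-fold lower. Mybbp1a, a nucleolar MYB-binding protein, read 474 and 1818, which is 3.84-fold lower, and Gnl3, the nucleolar GTPase nucleostemin, read 932 and 3510.2, which is 3.76-fold lower in 2 of 3 probe sets. Nolc1, Polr1b and Ddx21, which encode a nucleolar chaperone, a subunit of RNA polymerase I and a nucleolar helicase, were 3.39-, 2.63- and 2.36-fold lower, the first in 1 of 3 probe sets and the second in 1 of 2. Ncl, nucleolin, read 2759 and 4806, short of the rule. The proteins of the finished ribosome did not share this: 0 of 40 measured cytosolic ribosomal protein genes passed the rule in either direction, and their median was -0.15. A dimmer probe set of 1 of them, Rps29, disagreed, at 383 against 5363, while the brightest read 9032 and 11640.4. Of 24 translation factors and tRNA synthetases, 3 were lower and 1 was higher, beside 5.48% and 6.77% over all genes. Eef2k, the kinase that inhibits elongation, was the higher one, at 1080.1 against 225, which is 4.79-fold.

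The promoters of some lower genes of these groups are shown because the 4 motifs searched include those of the factors named above. Each promoter shown holds at least 1 motif, so these promoters do not stand for their groups, whose counts are given further below. Each runs 5′ to 3′ from 250 bases before to 50 bases after the gene start, from RefSeq on the GRCr8 build, with every motif match in capitals. Gnl3 (chr16:6219733-6220032, minus strand) holds the E box CACGTG, the letters bound by MYC with its partner MAX, at -25. Mybbp1a (chr10:57555208-57555507, plus strand) holds it at -156 and at -1. Dusp1 (chr10:17184603-17184902, plus strand) holds the cyclic AMP response element TGACGTCA at -124 and an E box at -107. Ppp1r15a (chr1:105139547-105139846, minus strand) holds the cyclic AMP response element at -66 and the AP-1 motif TGACTCA at -6.
Gnl3: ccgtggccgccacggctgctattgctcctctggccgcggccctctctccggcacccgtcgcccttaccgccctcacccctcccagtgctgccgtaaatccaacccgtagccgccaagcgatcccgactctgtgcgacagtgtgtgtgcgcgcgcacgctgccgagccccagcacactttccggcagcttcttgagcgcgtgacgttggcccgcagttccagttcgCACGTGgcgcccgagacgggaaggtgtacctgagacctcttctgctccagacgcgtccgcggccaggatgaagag
Mybbp1a: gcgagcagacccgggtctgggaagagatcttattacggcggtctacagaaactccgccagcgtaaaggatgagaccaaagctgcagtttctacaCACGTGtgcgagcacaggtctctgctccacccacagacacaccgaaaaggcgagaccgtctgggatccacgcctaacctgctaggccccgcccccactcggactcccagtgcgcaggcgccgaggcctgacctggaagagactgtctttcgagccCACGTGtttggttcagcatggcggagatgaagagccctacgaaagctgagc
Dusp1: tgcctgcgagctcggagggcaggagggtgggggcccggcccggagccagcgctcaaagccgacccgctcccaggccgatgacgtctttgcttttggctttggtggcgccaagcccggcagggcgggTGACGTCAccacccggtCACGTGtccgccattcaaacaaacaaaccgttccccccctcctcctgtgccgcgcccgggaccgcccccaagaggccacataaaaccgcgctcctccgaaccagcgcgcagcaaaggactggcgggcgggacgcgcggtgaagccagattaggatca
Ppp1r15a: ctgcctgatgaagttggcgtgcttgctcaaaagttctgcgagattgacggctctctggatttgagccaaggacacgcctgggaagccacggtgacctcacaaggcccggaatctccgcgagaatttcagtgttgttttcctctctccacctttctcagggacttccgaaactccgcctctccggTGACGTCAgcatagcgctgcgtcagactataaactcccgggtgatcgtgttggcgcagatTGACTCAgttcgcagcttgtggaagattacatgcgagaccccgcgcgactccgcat

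Promoters were matched for 2801 of the 3414 measured genes and the motifs were sought on both strands. The E box was in 12.6% of the promoters of higher genes, 10.5% of those of lower genes and 9.23% of those of genes not counted, and in 6.65% of all 27457 promoters of the table. The cyclic AMP response element was in 1.58%, 2.63% and 2.52% of these groups and 1.91% of all promoters. The AP-1 motif was in 1.05%, 3.95% and 4.03%, and 4.53% of all. The palindromic estrogen response element, GGTCA, 3 bases and TGACC, was in 7 of the 27457 promoters and in 1 of the 2801, that of Hist1h2af, a histone gene among the higher ones. These shares are descriptions of 300-base windows, and a match is not a binding site. Among the 6 lower ribosome biogenesis genes, all with a promoter in the table, 2 held an E box, and the 4 higher clock genes held none of the motifs. Of the 14 lower immediate-early genes 9 had a promoter, and 1 held a cyclic AMP response element, 1 an E box and 0 an AP-1 motif. For the 8 lower kinase and phosphatase genes, all with a promoter, these numbers were 2, 1 and 1. Dusp1 is in both of these lists, so its motifs were counted in both.

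Over the 104 measured pump and carrier genes 9 were lower and 4 higher, with a median of -0.13, beside 5.48% lower and 6.77% higher over all genes. Slc7a1, a carrier of arginine and lysine, read 138 with the estradiol label and 854 with the control label, 6.19-fold lower in 2 of 3 probe sets. Slc7a5, the carrier of large neutral amino acids, read 358 and 1233, which is 3.45-fold lower, while Slc3a2, the partner chain it needs, read 1548 and 2595, short of the rule. Slc2a1, the basal glucose transporter, read 657 and 1791, which is 2.72-fold lower. Slc16a6, a monocarboxylate carrier family member, was below the floor at 87.8 against 870.4, at least 8.54-fold lower. The higher carriers and pumps included Atp1b1, a beta subunit of the sodium pump, at 3923 against 669, which is 5.86-fold. Its relative Atp1b3 went the other way, at 2345 against 5313, which is 2.27-fold lower. In the polyamine pathway 2 of 5 measured genes were lower, Odc1 and Azin1, the latter an inhibitor of the protein that degrades Odc1, at 409 against 1159.

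Sterol synthesis was lower in 6 of its 16 measured genes, with 1 higher and a median of -0.70. Cyp51, a demethylase of the cholesterol pathway, read 249 with the estradiol label and 1049 with the control label, 4.21-fold lower, in 2 of 5 measured probe sets. Idi1, which isomerises the isoprenoid unit, was below the floor at 41.6 against 377, at least 3.70-fold lower. Insig1, a sterol sensor that restrains the pathway, read 271 and 806, which is 2.98-fold lower, and Mvd was 2.84-fold lower. Fdps and Sqle, enzymes of the same pathway, fell just short of the rule with log2 differences of -0.99 and -0.96. Scarb1, the receptor that takes up high-density lipoprotein cholesterol, was the higher gene, at 1959 against 545, in 2 of 3 probe sets. At 24 h Cyp51, Idi1, Insig1, Mvd and Fdft1 were all higher with estradiol, and the remaining lower gene of the list was within 2-fold.

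Among chaperones, Hspa5, the main chaperone of the endoplasmic reticulum, read 1327 with the estradiol label and 4079 with the control label, 3.07-fold lower in both probe sets. Of the 24 measured folding genes of that compartment it was the 1 lower gene, Dnajb9, a co-chaperone of it, was the 1 higher gene at 369.6 and 146, and the median was -0.29. In the heat shock and oxidative stress list 4 of 37 measured genes were lower and 3 higher, with a median of -0.21. Over all genes 5.48% were lower and 6.77% higher. The mitochondrial chaperonin pair Hspd1 and Hspe1 was 2.30- and 2.24-fold lower, in both probe sets of each. Cat, catalase, was 3.11-fold higher in 1 of 3 probe sets, and Sod2, the mitochondrial superoxide dismutase, 2.36-fold lower. In the proteasome and ubiquitin list 2 of 38 measured genes were lower, near the 5.48% over all genes, and 0 higher, with a median of -0.33.

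Chemokines, adhesion molecules and cytokines were lower in 7 of 34 measured genes and higher in 2, with a median of -0.27. Ccl2, which attracts monocytes, read 289.9 with the estradiol label and 2020 with the control label, 6.97-fold lower in both probe sets. Ccl11, eotaxin, which draws eosinophils into the estrogen-treated rodent uterus, was below the floor at 80.8 against 619, at least 6.07-fold lower, and at 24 h it read 2077 with estradiol against 211. Icam1 and Vcam1, which hold leukocytes on endothelium, read 532 and 2214, and 75.5 (below the floor) and 429.9, the latter gene in 1 of 2 probe sets. Il33, an alarmin of stromal and endothelial nuclei, was among the higher genes at 1163 against 259, which is 4.49-fold. Il15, a cytokine of natural killer cells, was 2.80-fold higher in 2 of 3 probe sets. In the receptor and JAK-STAT list 4 of 21 measured genes were lower and 1 higher, with a median of -0.16. Il4r, the interleukin 4 receptor, read 921 and 4303, which is 4.67-fold lower. Stat3 read 103, just above the floor, and 382, which is 3.71-fold lower. Socs3, a feedback inhibitor that STAT3 induces, was below the floor at 70.8 against 430.1. None of the 14 measured interferon-response genes passed the rule.

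**Figure D3:**
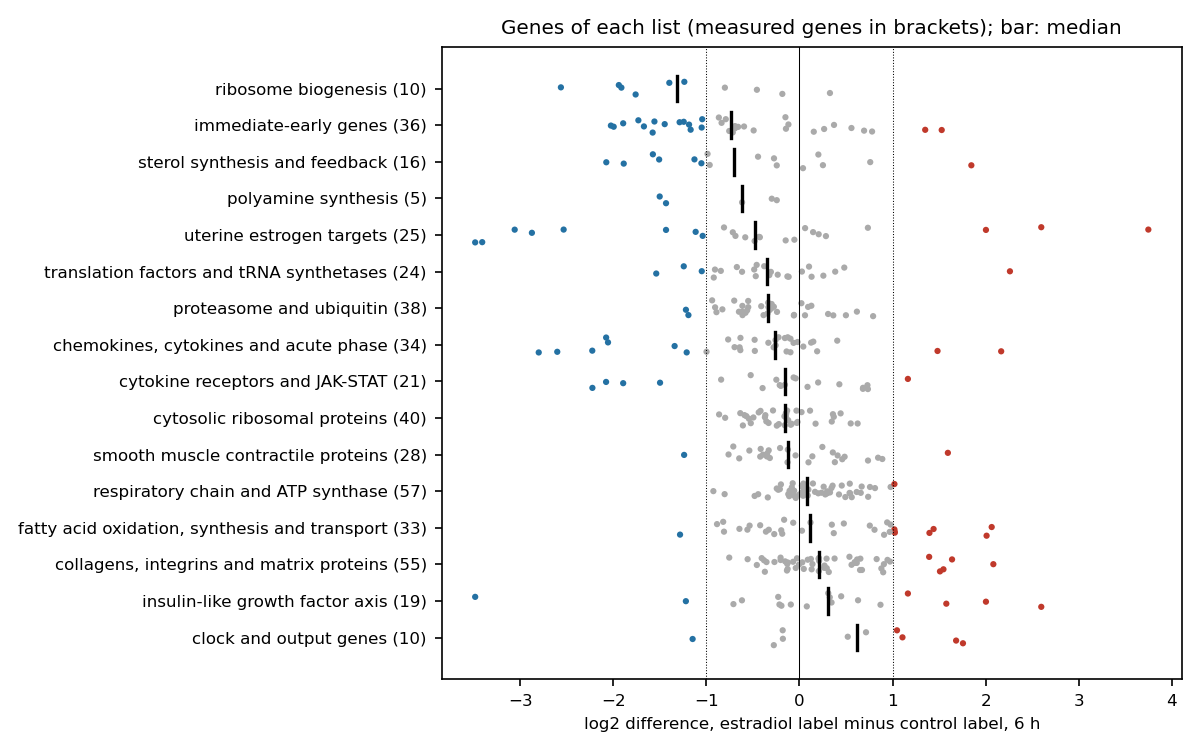
Log2 difference at 6 h (estradiol label minus control label) of each measured gene in 16 gene lists, with lower genes in blue, higher genes in red and the list median as a bar; dotted lines mark 2-fold. Ribosome biogenesis has a median of -1.32 and clock genes a median of 0.62, while the 40 cytosolic ribosomal proteins all lie within 2-fold.

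Clock genes were the list with the highest median, 0.62, with 4 of 10 measured genes higher and 1 lower. Nr1d1, a nuclear receptor that represses the core of the clock, read 1354 with the estradiol label and 401 with the control label, 3.38-fold higher, and Dbp, an output factor of the clock, read 2332 and 726, which is 3.21-fold higher, both in 2 of 2 probe sets. Per2 and Nr1d2 were 2.15- and 2.07-fold higher, and Bhlhe40, a repressor of the same loop, was 2.22-fold lower. At 24 h the 4 higher genes were all lower with estradiol, Nr1d1 at 488 against 1183 in the control and Dbp at 465 against 1677. The sources used here give no hour of day for tissue collection.

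Several of the largest higher differences were in genes of other roles. Galr2, a galanin receptor, read 1448 with the estradiol label and 102 below the floor with the control label, at least 13.4-fold higher, from 1 probe set. Cap2, an actin-binding protein, read 1921 and 273, which is 7.05-fold higher, and Ndrg2, of the N-myc downstream-regulated family, read 3894 and 629.8, which is 6.18-fold higher. Both first steps of branched-chain amino acid breakdown were among them. Bcat2, the mitochondrial aminotransferase, read 673 against 63.4 below the floor, at least 6.24-fold higher. Bckdha, a subunit of the ketoacid dehydrogenase, read 703 and 111, the latter just above the floor, which is 6.36-fold higher. Mxd4, a repressor that competes with MYC for MAX, read 734 against 49.4, at least 6.80-fold higher, and Mxi1 of the same family read 1233 and 358. Pnrc1, a nuclear receptor coactivator, read 1585 and 307, which is 5.16-fold higher in 1 of 2 probe sets.

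Fuel use genes were read in 3 lists. In fatty acid metabolism the median was 0.12, and 7 of 33 measured genes were higher and 1 lower. Cpt1a, the gate of mitochondrial fatty acid entry, read 1027 with the estradiol label and 378 with the control label, 2.71-fold higher, and Eci1 and Ech1, enzymes for unsaturated fatty acids, were 4.03- and 2.63-fold higher, the former in 2 of 3 probe sets. Scd2, a desaturase, read 1930.1 and 461, which is 4.18-fold higher in 2 of 5 measured probe sets. In glycolysis and glycogen the median was -0.11, with 1 of 28 measured genes lower, the transporter Slc2a1, and 4 higher. The higher genes included the glycogen phosphorylases Pygb, at 6060 against 1522 in 2 of 3 probe sets, and Pygm. The others were Ldhb and the kinase Pdk2 that closes pyruvate dehydrogenase, the latter at 979 against 220.1. The respiratory chain differed little, with 1 of 57 measured genes higher (Sdha, 2.03-fold) and 0 lower. In steroid metabolism Sult1a1, a sulfotransferase, read 1004 and 216, which is 4.65-fold higher, and Cyp27a1, a sterol hydroxylase, read 877 and 168, which is 5.24-fold higher. Cyp1b1, which hydroxylates estradiol, was below the floor at 70.9 against 375, at least 3.68-fold lower in 3 of 3 probe sets.

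Genes of contraction and relaxation differed in few members of each list. Of 28 measured contractile protein genes 1 was lower and 1 higher, with a median of -0.13, and Acta2 and Myh11, smooth muscle actin and myosin, read 10975 against 13986 and 10623 against 13937. Actg2, the enteric actin, read 8459.96 and 14342, short of the rule. The receptor and junction genes of contraction had a median of -0.15, and 3 of 44 measured were higher and 4 lower, beside 6.77% and 5.48% over all genes. Both subunits of the nitric oxide receptor, soluble guanylyl cyclase, were higher, Gucy1a1 at 1387 against 354 and Gucy1b1 at 396 against 129. Nos2 and Nos3, which make nitric oxide, were 3.24- and 2.42-fold lower in 1 of 2 and 2 of 4 probe sets, and Nppc, C-type natriuretic peptide, was below the floor at 35.2 against 735, at least 7.21-fold lower. Agtr1a, the angiotensin receptor that contracts smooth muscle, read 921 and 218, which is 4.23-fold higher in 3 of 4 measured probe sets. Of 31 measured calcium store and channel genes 3 were higher and 1, S100g, was lower, with a median of 0.09, which again is read beside those shares. The higher ones were Itpr1, a release channel, at 1296 and 347, Pln, the brake on the calcium pump, at 388 and 112, and the pump gene Atp2a3 at 843 and 364. The control label signal of Pln was just above the floor. Atp2a2, the main pump of smooth muscle stores, read 3060.3 and 3913 and was not counted. Gja1, the main gap junction protein of the labouring uterus, was near or below the floor at 34.9 and 113 and cannot be read. Among growth factor receptors of vessels, Kdr read 184 and 706, which is 3.83-fold lower, while Vegfa read 424 and 696 in its brightest probe set, short of the rule, although 2 dimmer ones were lower.

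Matrix genes were higher in 5 of 55 measured and lower in 0, with a median of 0.21, beside 6.77% higher over all genes. Ddr2, a collagen receptor kinase, read 1194 with the estradiol label and 282 with the control label, 4.24-fold higher, Loxl1, which crosslinks elastin, read 2801 and 899, which is 3.11-fold higher, and Lum, a collagen-binding proteoglycan, read 2562 and 975, which is 2.63-fold higher. The major fibrillar collagens were close to equal, with log2 differences of -0.12 for Col1a1 and -0.13 for Col3a1. Among proteases and inhibitors Timp1, an inhibitor of metalloproteinases, read 1008 and 2877, which is 2.85-fold lower, and Mmp14, a membrane metalloproteinase, read 5745 and 2730.3, which is 2.10-fold higher. In cell cycle genes 2 of 29 measured were higher, again near the overall share, and 0 lower, and one of these was the inhibitor Cdkn1b, at 386 against 86.0 below the floor.

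Markers of other cell types were read on the same arrays. Smooth muscle markers were bright on both, with summed signals of 81822 with the estradiol label and 96910.1 with the control label and 0 of 10 measured markers counted. Epithelial markers summed to 1338 and 2502, and 4 of 9 measured were lower, with a list median of -0.43. Krt8 and Krt18, a keratin pair of simple epithelium, read 69.6 against 404 and 86.0 against 521. The other lower markers were Krt19, in 1 of 2 probe sets, and Lcn2. Within 2-fold, Cldn7, Ocln and Krt14 leaned higher, at log2 differences of 0.73, 0.50 and 0.13, and Muc1 leaned lower at -0.43. In endometrial stroma and fibroblast markers 2 of 10 were higher, Lum and Nr2f2, and 1 was lower, with sums of 39969 and 35463. Endothelial markers summed to 1672 and 2525 with 2 of 7 lower, Kdr and Nos3, and a median of -0.17. Within 2-fold, Flt1 and Pecam1 leaned higher, at log2 differences of 0.49 and 0.20, and Selp leaned lower at -0.70. Vwf also leaned higher, at 0.78 with its control label value below the floor. Macrophage markers summed to 11999 and 14786 with 2 of 16 lower and a median of -0.38. Blood cell markers summed to 10428 and 15838 with 0 of 6 counted, and 0 of 7 lymphocyte markers were counted. At the floor on both arrays were Epcam and Krt5 of epithelium, Csf1r and Itgam of macrophages, and 7 of 14 lymphocyte markers, Cd3d and Cd8a of T cells among them. Acta1, the skeletal muscle actin that smooth muscle can also make, was 2.78-fold lower. The part of epithelial and vascular cells in the results was not tested, and in pooled tissue fewer cells of a type and less RNA per cell cannot be told apart.

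**Figure D4:**
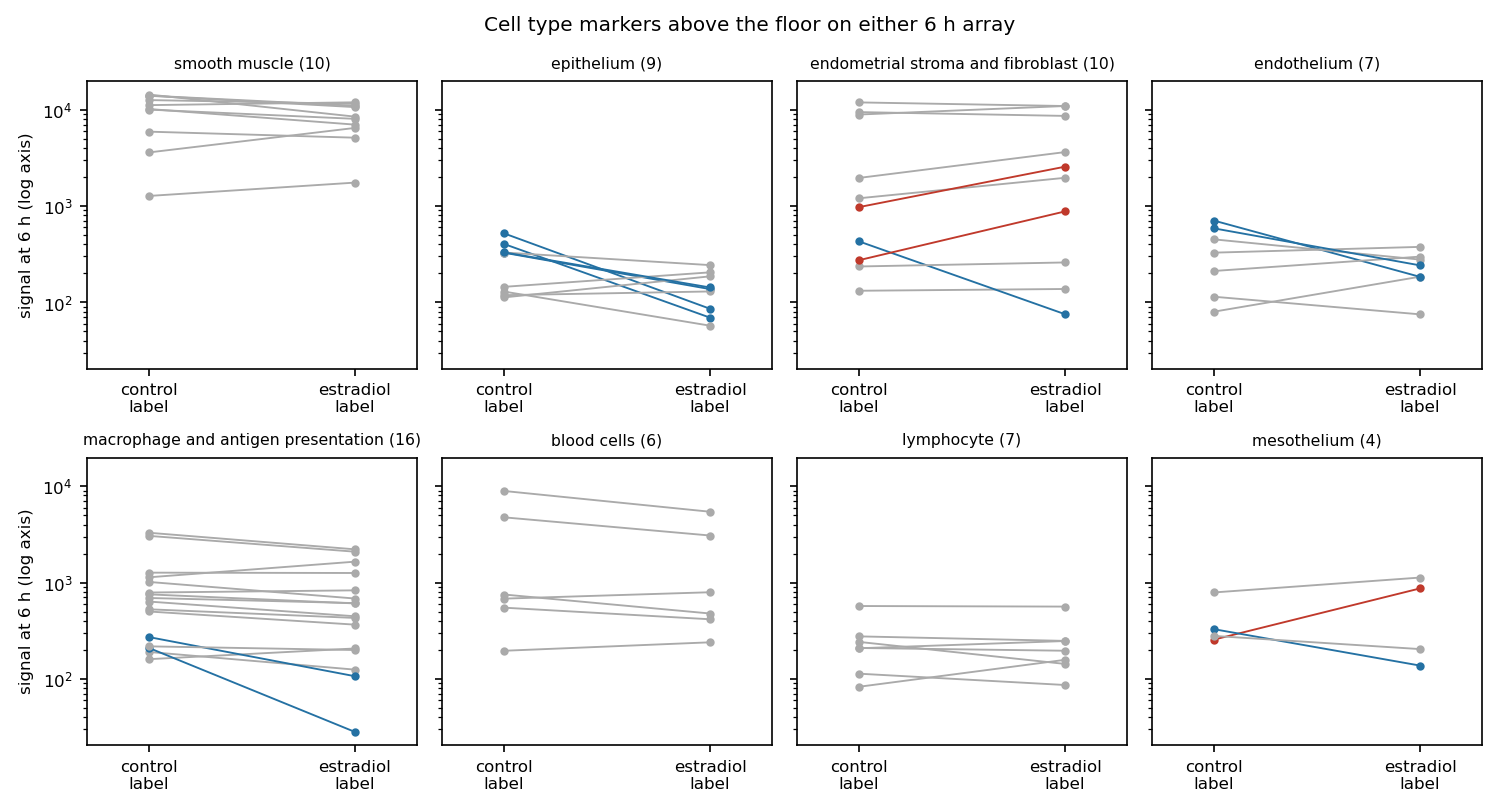
Signals at 6 h on a log axis for the measured markers of 8 cell types; each line joins the array labelled control and the array labelled estradiol for 1 gene, with lower genes in blue and higher genes in red. Smooth muscle markers run level and bright, with 0 of 10 past 2-fold, and 4 of 9 epithelial markers are lower.

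The members were also read in the comparison at 24 h, which shares no array with that at 6 h. At 24 h 316 of 3428 measured genes were higher with estradiol (9.22%) and 287 were lower (8.37%). Of the 231 genes higher at 6 h, 69 were lower at 24 h (29.9% of the 6 h list and 24.0% of the 24 h list) and 21 were higher (9.09% and 6.65%). Of the 187 genes lower at 6 h, 55 were higher at 24 h (29.4% and 17.4%) and 6 were lower (3.21% and 2.09%). The median log2 difference at 24 h was -0.56 over the genes higher at 6 h that were measured there and 0.37 over those lower at 6 h. More genes in each list were thus past the rule in the opposite direction than in the same one. The genes with opposite calls included Agtr1a, Gucy1a1, Igf1r, Il33, Sult1a1, Cyp27a1 and the clock genes on the higher side at 6 h. On the lower side they included Cd24, Odc1, Junb, Krt18, Mybbp1a, Slc7a1 and Slco2a1, the prostaglandin transporter. Igfbp5, Eci1, Pygb and Loxl1 were higher at both times. Dusp1 was lower at both times, and read 113 in the treated pool and 432 in its control at the later time.

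**Figure D5:**
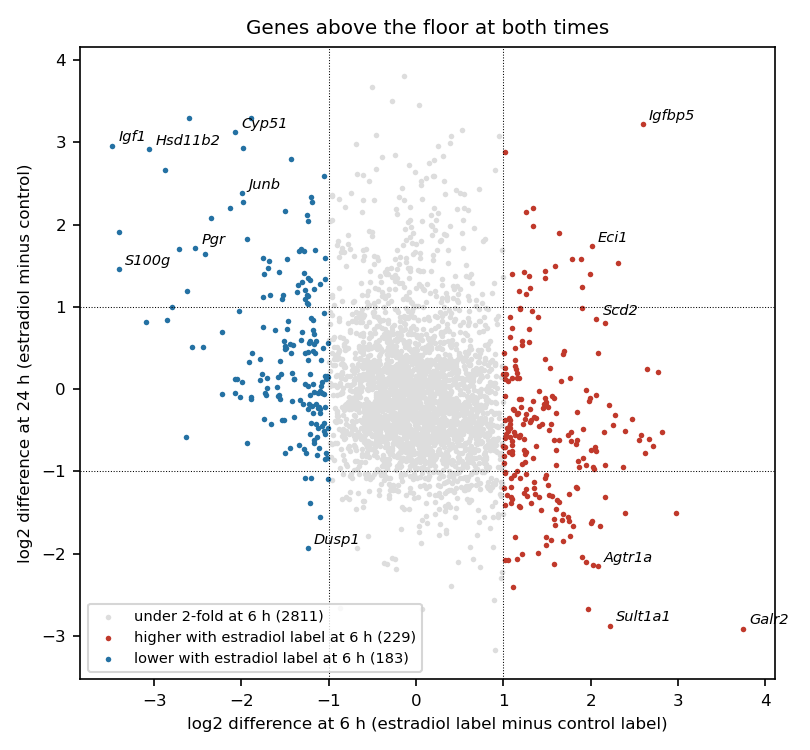
Log2 difference at 24 h (estradiol minus control, y axis) against that at 6 h (estradiol label minus control label, x axis) for genes measured at both times; dotted lines mark 2-fold. The upper left (55 genes) and lower right (69 genes) hold more genes than the lower left (6) and upper right (21).

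The choice of control array mattered for these results. With the 24 h control as the reference, which also changes the time and scan day, 439 probe sets were higher and 172 lower. The lower calls then shrank from 14 to 1 among immediate-early genes, from 6 to 0 in ribosome biogenesis, from 6 to 1 in sterol synthesis and from 8 to 2 in estrogen targets, and the higher calls from 4 to 0 among clock genes. Of the 231 higher genes, 49 were also at least 2-fold higher than the 24 h control (21.2%), and of the 187 lower genes 16 were also lower (8.56%). The higher ones included Igfbp5, Igfbp3, Eef2k, Ddr2, Pygb, Itpr1, Pnrc1, Mxi1, Loxl1 and Lum, and the lower ones S100g, Ccl11, Stat3, Klf4, Hspa5 and Krt8. On the 6 h array labelled estradiol, Ccl11 and Krt8 were below the floor and Stat3 was just above it.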

How the data were processed

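The series holds 4 Affymetrix arrays of total RNA from rat myometrium, of which the 2 at 6 h make the comparison and the 2 at 24 h give values beside it. The signal intensities are those the authors deposited in 1 table, computed, per the submitters' processing notes, by the Affymetrix algorithm MAS5, which corrects for mismatch probes. For MAS5 a version is not given in the sources used here. Instrument records, also deposited, hold other values (scan day, chip lot, wash steps), and per the file headers the arrays share 1 chip lot, the 6 h and 24 h arrays have a scan day each, and 1 array, the 24 h control, has a wash error. The samples were grouped by their titles, and the deposited columns had a 2% trimmed mean of 499, so they had been scaled to a common target.

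Signals were rescaled to a trimmed mean of 500, floored at the 40th percentile of the array and log2 transformed with Python 3.11.15, numpy 2.4.6 and pandas 2.3.3. A difference counted when it reached 2-fold with the brighter array above its floor. Probe sets with 1 gene symbol in the platform table (7018) were named; 308 had several symbols and 1473 had none. Their symbols were looked up among RefSeq genes of GRCr8, which changed 0 of them, and 24 probe sets had no match. Where both arrays of a gene lay at the floor, no fold is given. No statistical test was run, since each group has 1 array, and where nothing is replicated the spread between animals cannot be seen.

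Gene lists hold 34 pathways and 15 cell marker sets. The members and lists were chosen with earlier results of these data known. Named genes follow 1 rule: the 15 largest differences per direction measured on both arrays, 8 bounds per direction, up to 6 called and 4 other genes per list, and a set chosen by name. Atp1b3, Dusp1, Fdft1, Il15, Klf9, Mmp14, Mxi1, Nr4a1, Rps29, Sqle, Hist1h2af, Igfbp2 and the cell markers at the floor, lie outside it and were chosen after their values were seen. The code of the counting rule was checked on simulated arrays, which say nothing of its error on these pools. Alternatives were other scalings, a pseudocount of 50, lower and higher floors (20th and 60th percentiles), 1.5-fold and 3-fold rules, the 24 h control, both controls, probe sets without name suffixes, and averaged probe sets per gene.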

Additional observations from a re-analysis of the deposited data

Results flagged for a closer look

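Among the genes named in the text, 46 passed 2-fold in opposite directions at 6 h and at 24 h. With 1 array per group the difference between the times was not tested. The 26 genes that were lower at 6 h and higher at 24 h had these log2 differences at 6 h, by role. Among estrogen targets Igf1 was at -3.48, S100g at -3.41, Hsd11b2 at -3.06, Cd24 at -2.87, Pgr at -2.53, Odc1 at -1.43 and Oxtr at -1.04. The sterol genes were Cyp51 at -2.07, Idi1 at -1.89, Insig1 at -1.57, Mvd at -1.51 and Fdft1 at -1.05. Nucleolar and chaperone genes were Mybbp1a at -1.94, Ddx21 at -1.24 and Hspe1 at -1.16. Keratins were Krt18 at -2.35, Krt8 at -1.99 and Krt19 at -1.25. The others were Ngfr at -3.40, Slc7a1 at -2.63, Ccl11 at -2.60, Junb at -1.995, Slco2a1 at -1.98, Nos2 at -1.69, Sgk1 at -1.67 and Acta1 at -1.47. The values of Oxtr, Idi1, Fdft1, Krt18, Krt8 and Ccl11 are bounds, since the array labelled estradiol was at its floor for them.

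The 20 genes that were higher at 6 h and lower at 24 h were as follows. Receptors and growth factor genes were Galr2 at 3.75 or more, a bound, Agtr1a at 2.08, Igfbp3 at 2.003 and Igf1r at 1.58. Relaxation and calcium genes were Gucy1a1 at 1.97, Pln at 1.79, Gucy1b1 at 1.62 and Atp2a3 at 1.21. Clock genes were Nr1d1 at 1.76, Dbp at 1.68, Per2 at 1.11 and Nr1d2 at 1.05. Metabolic genes were Cyp27a1 at 2.39, Sult1a1 at 2.22, Cat at 1.64, Pygm at 1.49 and Ech1 at 1.40. Il33 was at 2.17, Il15 at 1.48 and Klf9 at 1.35.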

How the results depend on the processing

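With signals as deposited, a common median or quantile normalization, no named gene reversed and the counts of higher and lower probe sets at 6 h stayed within 1.5 times the reported ones. The genes lower at both times numbered 3 with a common median and 3 with quantile normalization. A floor at the 20th percentile gave 721 probe sets higher and 775 lower, so the balance turned, and put Csf1r at 1.01, and a floor at the 60th percentile gave 239 and 184. Genes by direction at 6 h and then at 24 h numbered 41 higher at both times, 90 lower then higher and 56 lower at both with the 20th percentile, and with the 60th percentile 9 higher at both, 43 higher then lower, 33 lower then higher and 0 lower at both. The 1.5-fold rule gave 1069 and 914 probe sets and 72, 246, 141 and 72 genes for higher at both, higher then lower, lower then higher and lower at both. The 3-fold rule gave 136 and 99 probe sets and 3, 16, 17 and 0 genes in that order. A pseudocount gave 11 genes lower at both times. Without suffixed probe sets there were 281 higher and 217 lower probe sets and 12 genes higher at both times, fewer probe sets being read, and averaging the probe sets of each gene gave 13 higher at both. The 24 h control gave 172 lower probe sets, and a 2-fold difference from each control 85 higher and 36 lower. The overlap with 24 h was not counted for these last settings, since the comparisons would share an array.

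Against the 24 h control 37 of the 113 called genes named in the text changed sign and 54 kept their sign but fell short of 2-fold. Genes lower at 6 h then had log2 differences of 1.74 for Junb, 1.36 for Odc1, 0.74 for Slco2a1, 0.46 for Slc7a1, 0.45 for Ccl2, 0.45 for Mvd, 0.43 for Nos2, 0.27 for Cebpd, 0.16 for Sgk1, 0.15 for Mybbp1a, 0.12 for Cebpb, 0.11 for Ppp1r15a, 0.082 for Igf1, 0.0566 for Nolc1, 0.0441 for Ddx21 and 0.0213 for Icam1. Cyp1b1, Fdft1, Idi1, Oxtr, Slc16a6, Socs3 and Vcam1 stood at 0.0207, the ratio of the floors. Genes higher at 6 h then stood at -0.54 for Atp2a3, -0.44 for Per2, -0.38 for Cat, -0.30 for Agtr1a, -0.25 for Il15, -0.24 for Ghr, -0.23 for Pygm, -0.17 for Nr1d2, -0.16 for Gucy1b1, -0.13 for Sult1a1, -0.0929 for Scd2, -0.0599 for Ech1, -0.0394 for Pdk2 and -0.0143 for Pln. With the 60th percentile floor Fdft1, Irs1 and Oxtr stood at 0.0443, both arrays being at the floor. The cause was not tested. No paired analysis was possible because each group has 1 array. Signal over background limits the dim genes: 2995 probe sets were at the floor on both arrays.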
